A study of Mus musculus with 19 samples.

Results

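Cytotoxic granule and natural killer (NK) cell effector genes were described in splenocytes of immunized mice. The genes were chosen by name with earlier results of these data known, so their counts beside those of all genes are a description. Of the 27179 genes in the expression table, 9 were members: Ncr1, Gzma, Gzmb, Gzmk, Gzmm, Prf1, Nkg7, Fasl and Ctsw. All 9 were found in the table by their Entrez Gene identifiers, and all 9 passed the filter on low values that left 14186 genes for testing.

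NK cells and cytotoxic T cells kill target cells by releasing granules toward them. Perforin opens the target membrane, granzymes enter through it and cleave proteins that start apoptosis, and Fas ligand on the cell surface triggers death through its receptor Fas without granules. In the mouse spleen these genes are expressed mainly by NK cells, CD8 T cells and innate-like T cells, which form a minority of splenocytes beside B cells and CD4 T cells.

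In the 4 Core Genotype (FCG) model, a Y chromosome without Sry is combined with an Sry transgene on chromosome 3, so that testes or ovaries form whichever sex chromosomes a mouse carries. The mice descended from XY- Sry males of the strain B6.Cg-Tg(Sry)2Ei Srydl1Rlb/ArnoJ bred with C57BL/6J females. The groups were 5 XXF mice (ovaries, XX, no transgene), 4 XYF mice (ovaries, XY- without the transgene), 5 XXM mice (testes, XX with the transgene) and 5 XYM mice (testes, XY- with the transgene). Every mouse had received heat-killed Streptococcus pneumoniae (HKSP) of the avirulent, nonencapsulated strain R36A by intraperitoneal injection 7 days earlier, and unimmunized mice were not analysed here. Spleens were dissociated and red cells lysed before RNA extraction, with 1 library per mouse, and neither age nor gonadal surgery is given for the sequenced mice in the sources used here.

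Levels are given in RPKM, that is reads divided by gene length and library size, which can be compared between genes. Differences are given on the log2(RPKM + 1) scale with their standard error (SE) from limma, fitted over all 19 mice and 14186 genes, and are smaller than the fold change of weakly expressed genes. Genes count as called with a p under 0.1 after Benjamini-Hochberg adjustment and a log2 difference beyond 0.585 either way, which is 1.5-fold. Libraries held 11263753 to 19962022 reads on genes.

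Before the results, 2 libraries stood apart. In XYF F9 and XYM 9 the 10 myeloid markers, led by the neutrophil genes S100a9 and S100a8, summed to 46229 and 46862 RPKM, against 3409.6 to 16493 RPKM in the other 17 mice. The same libraries held the lowest sums over the 9 cytotoxic genes, 186 and 148 RPKM. Low sums were not confined to these genes. For B cell markers XYF F9 had the lowest sum of all mice (1407 RPKM) and XYM 9 the lowest among males (2399 RPKM). For T cell markers XYM 9 had the lowest sum of all mice (427 RPKM) and XYF F9 the lowest among females (745 RPKM). The 2 libraries also held the highest sums of 7 mast cell and basophil markers (139 and 99.6 RPKM, against 13.6 to 44.5 RPKM in the others). For 8 proliferation markers XYF F9 had the highest sum (506 RPKM). XYM 9 stood at 388 RPKM, below XYF F6 (405 RPKM) but above the other XYM mice (80.9 to 149.6 RPKM). XYF F9 and XYM 9 are both XY, and each call of a member that changed without the 2 together is named below with its value.

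Over all mice Gzma was the most abundant member at 201 ± 107 RPKM (mean ± SD, n = 19), followed by Nkg7 at 100.3 ± 32 RPKM and Ctsw at 62.9 ± 19.1 RPKM. Prf1 (20.6 ± 7.23 RPKM), Ncr1 (18.4 ± 8.2 RPKM) and Gzmb (13.8 ± 5.03 RPKM) formed a middle tier. Gzmm (5.11 ± 2.1 RPKM), Fasl (4.51 ± 1.54 RPKM) and Gzmk (2.18 ± 2.11 RPKM) were weakly expressed. Nkg7 exceeded Ctsw, Ctsw exceeded Prf1 and Gzmb exceeded Gzmm in each of 19 mice. Neighbours within a tier were not ordered in every mouse, since Prf1 exceeded Ncr1 in 14 of 19 mice, Ncr1 exceeded Gzmb in 15, Gzmm exceeded Fasl in 12 and Fasl exceeded Gzmk in 15. Gzmk exceeded Fasl in every XYF mouse, and in that group Gzmk had a mean of 5.22 RPKM, above Gzmm (3.67 RPKM) and Fasl (2.97 RPKM). Gzma exceeded Nkg7 in 16 of 19 mice.

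**Figure D1:**
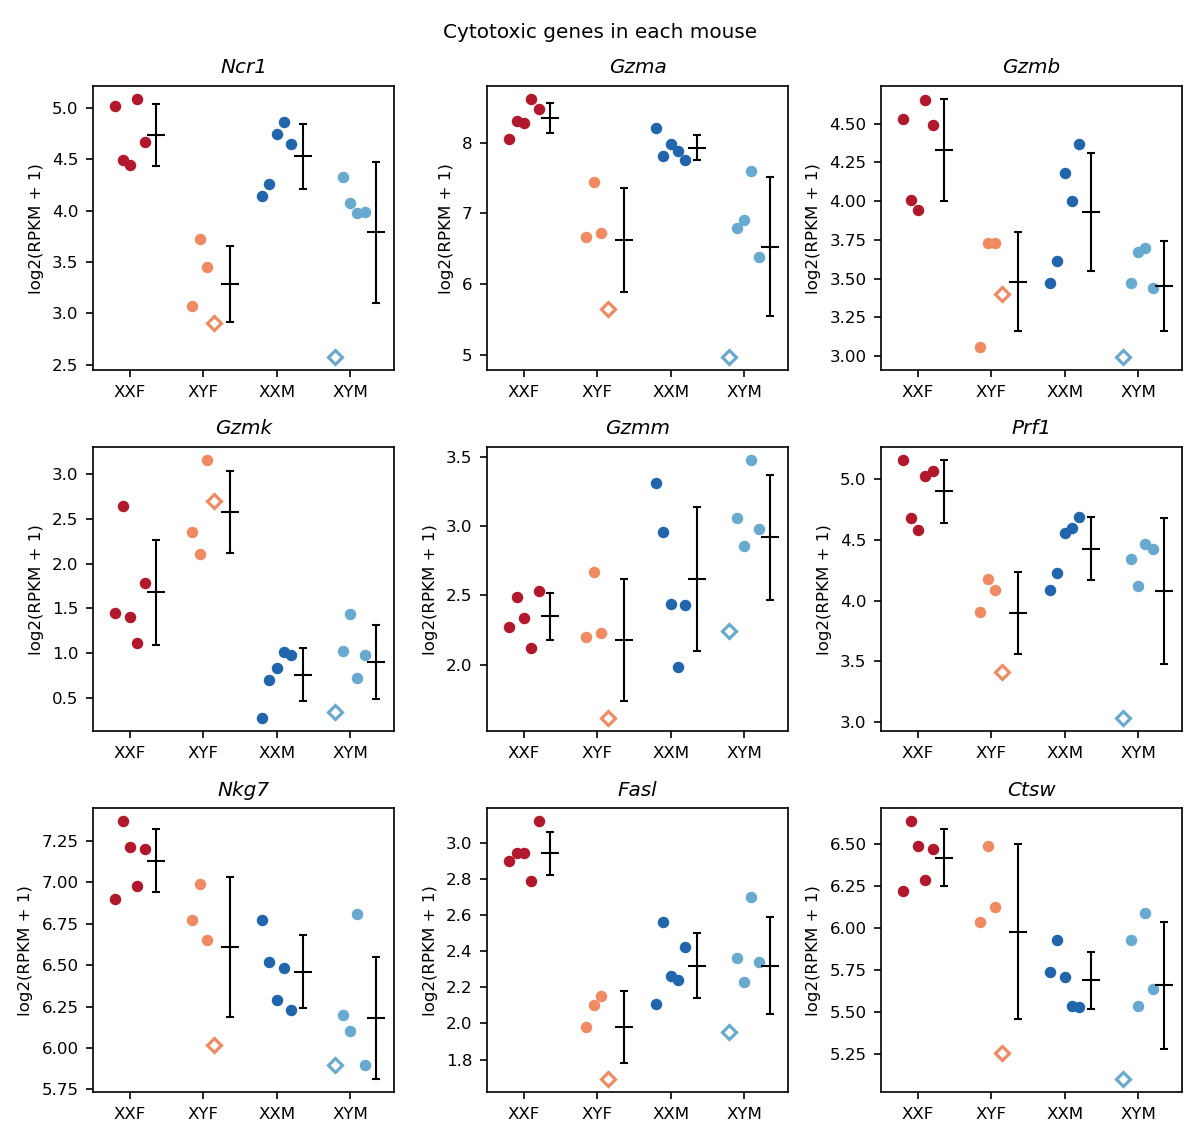
Each panel plots log2(RPKM + 1) of 1 gene in each mouse of the groups XXF, XYF, XXM and XYM, with bars for mean ± SD (n = 5, 4, 5 and 5) and open diamonds for XYF F9 and XYM 9; the axes do not start at 0. For Fasl the XXF mice lie above the mice of the other 3 groups, and for Gzmk the female groups lie above most male mice.

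Between XX and XY females, the NK receptor and 4 of the killing genes were called. Of the 9 members, 5 were called higher among XXF than among XYF mice (Ncr1, Gzma, Gzmb, Prf1 and Fasl) and 0 lower, where 0.67% of all 14186 genes tested were called higher and 0.712% lower. With single mice left out, the members called either way ran from 2 (2 higher, without XXF F5, XYF F6 or XYF F9) to 8 (7 higher and Gzmk lower, without XYF F7), and that of all genes from 56 to 850 beside 196. The same 5 members did not overlap between the 2 groups, as did 3.56% of all genes in that direction. The median log2 difference was 0.85 over the members and 0.062 over all genes tested. In males 1 member was called higher in XXM than in XYM mice (Gzma) and 0 lower, beside 1.13% of all genes higher and 1.83% lower. It ran from 0 to 2 with single mice left out, and all genes called from 51 to 1214 beside 420. Gzma was also the 1 member whose male groups did not overlap, which held for 2.27% of all genes in that direction. The medians in males were 0.28 and 0.00643. Averaged over gonadal sex, 4 members were called higher in XX mice (Ncr1, Gzma, Gzmb and Prf1) and 0 lower, beside 0.515% of all genes higher and 1.21% lower. With single mice left out, the members called averaged ran from 3 to 5, and all genes called from 148 to 518 beside 244. The averaged medians were 0.48 and 0.0273.

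Between males and females Fasl and 4 members not called between XX and XY mice (Gzmk, Gzmm, Nkg7 and Ctsw) were called in at least 1 comparison, and whether the members differ in this was not tested. In XX mice 4 members were called lower in males (Gzmk, Nkg7, Fasl and Ctsw) and 0 higher, beside 2.91% of all genes lower and 1.3% higher, and the same 4 did not overlap between XXM and XXF mice, as did 5.15% of all genes in that direction. In XY mice Gzmk was called lower in males and Gzmm higher, that is 1 member each way, beside 8.13% of all genes lower and 7.63% higher. Only Gzmk of the 9 did not overlap there, as did 3.86% of all genes in that direction. Averaged over sex chromosomes, 1 member was called lower in males (Gzmk) and 0 higher, beside 5.36% of all genes lower and 1.96% higher. With single mice left out, the members called ran from 2 (without XXM 2) to 4 in XX mice, 2 to 3 in XY mice and 1 to 3 averaged. All genes called ran from 499 to 627 beside 598, 1395 to 2958 beside 2237 and 837 to 1253 beside 1039. The median log2 difference of the members was -0.47 in XX mice, -0.03 in XY mice and -0.21 averaged, against -0.00719, 0.0167 and 0.0174 over all genes. The count in XY mice was near the background of a comparison in which many genes differed. These comparisons share mice with one another, since every group enters several of them.

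**Figure D2:**
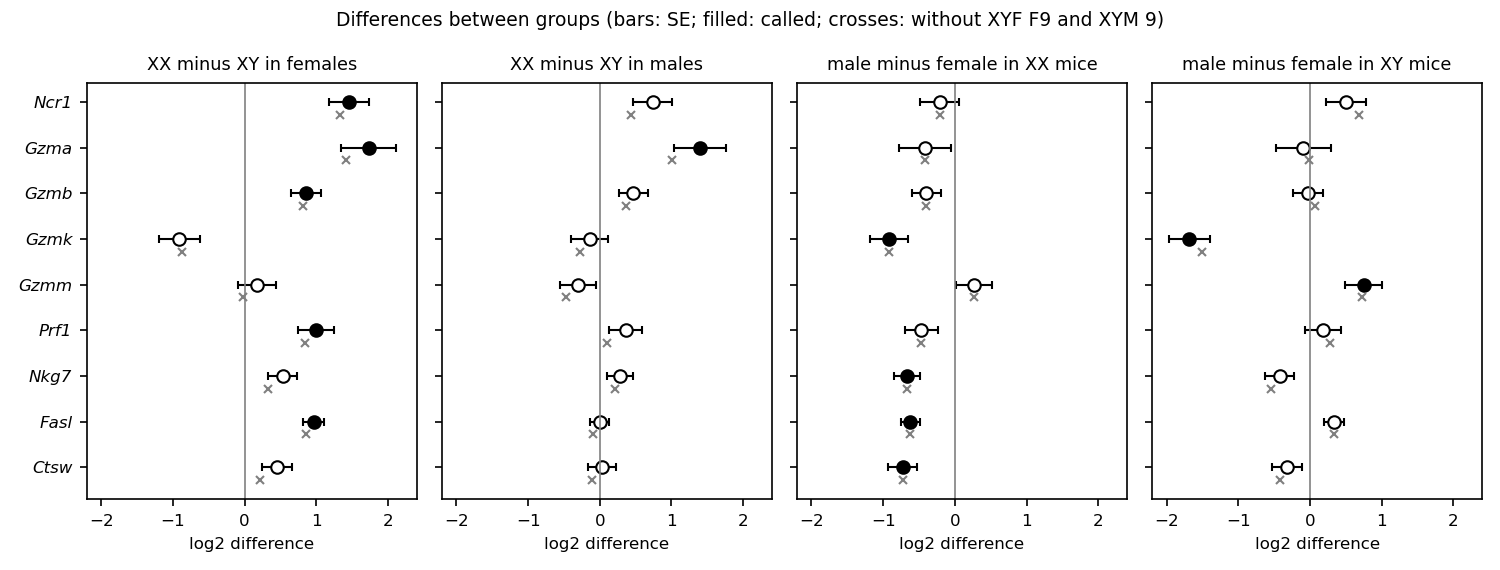
Log2 differences of the 9 members (horizontal axes) in 4 comparisons, with bars for the SE, filled circles for called genes, and crosses for the difference without XYF F9 and XYM 9. Filled circles lie right of 0 for 5 members in females and for Gzma in males, and left of 0 for 4 members between XXM and XXF mice.

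Ncr1 (Entrez Gene 17086, chr7:4337715-4345184 of GRCm38) encodes NKp46, an activating receptor that marks NK cells and some innate lymphoid cells. In ascending order it stood at 20.8, 21.5, 24.5, 31.3 and 33.1 RPKM in XXF mice and at 6.5, 7.4, 9.89 and 12.2 RPKM in XYF mice. Male values were 16.6, 18.1, 24.1, 25.9 and 28.2 RPKM in XXM mice and 4.95, 14.8, 14.9, 15.9 and 19.1 RPKM in XYM mice. Every XXF mouse lay above every XYF mouse, whereas the male groups overlapped and XYM 9, the lowest of all mice, stood far below the rest of its group. The log2 difference between XX and XY mice was 1.46 ± 0.28 (SE, adjusted p = 0.0179) in females, called in each of 32 alternative fits, and 0.74 ± 0.27 (SE, adjusted p = 0.111) in males, where it missed the threshold. The male difference was 0.44 (adjusted p = 0.112) without XYF F9 and XYM 9 together, and it was called with median ratio rescaling, with quantile normalization, without XYF F9 and without XYM 15 (adjusted p = 0.0987, 0.0995, 0.0997 and 0.0718, range 0.0287 to 0.203). The female difference without the 2 was 1.33 (adjusted p = 0.00325). The difference between these effects was 0.71 ± 0.39 (SE, adjusted p = 0.287) and was not called, but it was 1.02 (adjusted p = 0.0486) without XYM 9, 0.89 (adjusted p = 0.0919) without the 2 and 0.83 (adjusted p = 0.0682) with array weights on all 19 mice, each called, and the adjusted p ranged from 0.0486 to 0.458 over the alternatives. Between males and females it was -0.21 in XX and 0.50 in XY mice (adjusted p = 0.731 and 0.18), and the latter was called without XYM 9 (0.81, adjusted p = 0.00601, range 0.00601 to 0.369), without the 2 (0.68) and with array weights (0.65, adjusted p = 0.039). In bulk RNA, fewer cells of a type and less RNA per cell cannot be told apart, here and for the other members.

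Granzymes are the serine proteases of the granules. Gzma (Entrez Gene 14938, chr13:113093824-113100981), a tryptase abundant in NK cells, stood at 265, 311, 316, 356 and 392 RPKM in XXF mice and 49.3, 100.4, 104 and 173 RPKM in XYF mice. Male values of Gzma were 216, 223, 234, 252 and 296 RPKM in XXM mice and 30.1, 82.2, 109.5, 119 and 193 RPKM in XYM mice. XX and XY mice did not overlap in either gonadal sex, and the XXM values lay in a narrower range than the XYM values, of which XYM 9 had the lowest. The log2 difference was 1.73 ± 0.38 (SE, adjusted p = 0.0376) in females, 1.40 ± 0.36 (SE, adjusted p = 0.0645) in males and 1.57 ± 0.26 (SE, adjusted p = 0.00282) averaged, and was not called without XXF F5, XYF F6 or XYF F9 in females (adjusted p = 0.102, 0.101 and 0.181, range 0.00346 to 0.181). In males the call was lost without any 1 of XXM 2, 5 or 6 or XYM 12, 13 or 16 (adjusted p = 0.167, 0.126, 0.121, 0.127, 0.137 and 0.131), and in the fit of XXM and XYM mice alone (0.106), with a range of 0.00438 to 0.167. In these fits the male difference was 1.33 to 1.5, and in the 3 fits that lost the female call the female difference was 1.7, 1.74 and 1.41. Without XYF F9 and XYM 9 together the differences were 1.41 (adjusted p = 0.00647) and 1.01 (adjusted p = 0.0211). The effects in females and males differed by 0.33 ± 0.53 (SE, adjusted p = 0.729), which was not called.

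Gzmb (Entrez Gene 14939, chr14:56258836-56262334) cleaves caspases and other substrates after aspartate and is raised when killer cells are activated. Its values were 14.4, 15.1, 21.5, 22.2 and 24.2 RPKM in XXF mice and 7.33, 9.56, 12.2 and 12.2 RPKM in XYF mice. In males they were 10.1, 11.2, 15, 17.1 and 19.6 RPKM in XXM mice and 6.92, 9.85, 10.1, 11.7 and 12 RPKM in XYM mice. The female groups were separate, and the male groups overlapped at the 2 lowest XXM mice. The log2 difference was 0.85 ± 0.21 (SE, adjusted p = 0.0634) in females, 0.47 ± 0.20 (SE, adjusted p = 0.142) in males and 0.66 ± 0.14 (SE, adjusted p = 0.0191) averaged. In females it was not called without XXF F1, F4 or F5 or XYF F6 or F9 (adjusted p = 0.126, 0.147, 0.157, 0.197 and 0.201), in the fit of the female groups alone (0.138) or without XYF F9 and XYM 9 together (0.113), with a range of 0.0357 to 0.201. The difference was 0.709 to 0.823 with those single mice left out, 0.849 in the fit of the female groups alone and 0.823 without the 2. The averaged difference was called in 31 of 31 alternatives.

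Gzmk (Entrez Gene 14945, chr13:113171630-113180965), a tryptase expressed by memory CD8 T cells and other T cells, had the lowest mean of the members over all mice. It stood at 1.16, 1.64, 1.74, 2.43 and 5.23 RPKM in XXF mice and 3.31, 4.15, 5.5 and 7.94 RPKM in XYF mice. Male levels were 0.208, 0.627, 0.782, 0.977 and 1.01 RPKM in XXM mice and 0.265, 0.65, 0.976, 1.03 and 1.71 RPKM in XYM mice. All but 1 of the XXF mice lay below the XYF mice, and each male mouse except XYM 13 lay below each female mouse. From 2 to 14 reads stood behind the values of XXM mice and 37 to 113 behind those of XYF mice, so that single values in males are imprecise. Set against females, males differed by -0.92 ± 0.26 (SE, adjusted p = 0.0462) in XX mice, -1.68 ± 0.28 (SE, adjusted p = 0.00183) in XY mice and -1.30 ± 0.19 (SE, adjusted p = 0.000191) averaged. On recovered reads limma-voom gave -1.60 and -2.62 (adjusted p = 0.0804 and 0.00232), that is 0.33 and 0.163 times the female level. The call in XX mice was lost without XXF F2 or XXM 2 (adjusted p = 0.114 and 0.103, range 0.0202 to 0.114). Between XXF and XYF mice the difference was -0.91 ± 0.28 (SE, adjusted p = 0.129), not called, and was called with array weights and without XXF F2, XYF F7 or XYM 9 (0.0896, 0.0423, 0.0517 and 0.0799, range 0.0423 to 0.382). In males it was -0.14 ± 0.26 (SE, adjusted p = 0.742). Averaged it was -0.52 ± 0.19 (SE, adjusted p = 0.131), not called, and was called with array weights and without XXF F2 or XYF F7 (0.0393, 0.0524 and 0.065, range 0.0393 to 0.259).

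Gzmm (Entrez Gene 16904, chr10:79689020-79695261), a protease that cleaves after methionine and is found in NK and innate T cells, stood at 3.35, 3.82, 4.05, 4.63 and 4.76 RPKM in XXF mice and 2.04, 3.59, 3.68 and 5.38 RPKM in XYF mice. Males had 2.93, 4.38, 4.43, 6.76 and 8.92 RPKM in XXM mice and 3.71, 6.27, 6.87, 7.34 and 10.1 RPKM in XYM mice. XXM mice spanned most of the range of all groups, and all groups overlapped. Gzmm was called higher in XYM than in XYF mice at 0.75 ± 0.26 (SE, adjusted p = 0.0398), but not without XYF F9 (0.56, adjusted p = 0.117, range 0.00999 to 0.117). Averaged over sex chromosomes it was 0.51 ± 0.18 (SE, adjusted p = 0.0409), under the fold threshold, and was called with a pseudocount of 0.1, with limma-voom, without a fold threshold and without XYF F7, XXM 7 or XYM 9 (0.60, 0.60, 0.51, 0.59, 0.59 and 0.60). The difference was 0.27 ± 0.25 (SE, adjusted p = 0.604) between XXM and XXF mice, and 0.17 and -0.30 between XX and XY mice in females and males (adjusted p = 0.733 and 0.42).

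The 6 other granzyme genes on the fixed list gave little signal. Gzmc was tested at 0.535 ± 0.234 RPKM in XXF mice (mean ± SD, n = 5) and was called in 0 of 7 comparisons. Gzmf had at most 1 read in a mouse, and Gzmd, Gzme, Gzmg and Gzmn had 0 reads in all 19 libraries. Gzmb and Gzmc lie in a cluster of similar genes, but none of the 50-base stretches of the annotated transcripts of Gzmb, or of the other 8 members, recurred in a transcript of another gene. Exons of Ctsw shared 9 bases with Fibp on the opposite strand, and the other 8 members shared none with another gene.

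The bases before the start sites are shown for the NK receptor and the 2 granzymes called between XX and XY females, and for Gzmk, the granzyme called between males and females in both chromosome groups. RefSeq promoter entries (GRCm38.p6) were found for 8 members, and Ctsw had no entry. The 200 bases before the start are printed 5′ to 3′ on the strand of the gene, at chr7:4337515-4337714 on the plus strand for Ncr1 (the first of 2 listed starts), chr13:113100982-113101181 on the minus strand for Gzma, chr14:56262335-56262534 on the minus strand for Gzmb and chr13:113180966-113181165 on the minus strand for Gzmk. Capitals mark TGTGGT or its other strand ACCACA, the core letters bound by RUNX factors, and GGTGTGA or its other strand TCACACC, core letters bound by T-box factors. These windows hold no annotated exon.

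Ncr1: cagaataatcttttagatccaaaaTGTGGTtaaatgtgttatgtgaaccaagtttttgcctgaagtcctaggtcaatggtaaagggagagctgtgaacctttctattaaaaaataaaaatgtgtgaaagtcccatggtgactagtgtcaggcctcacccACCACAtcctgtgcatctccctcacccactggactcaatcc
Gzma: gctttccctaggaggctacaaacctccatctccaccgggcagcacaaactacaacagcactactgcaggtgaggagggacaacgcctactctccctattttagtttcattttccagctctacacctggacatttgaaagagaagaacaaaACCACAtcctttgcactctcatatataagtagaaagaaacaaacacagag
Gzmb: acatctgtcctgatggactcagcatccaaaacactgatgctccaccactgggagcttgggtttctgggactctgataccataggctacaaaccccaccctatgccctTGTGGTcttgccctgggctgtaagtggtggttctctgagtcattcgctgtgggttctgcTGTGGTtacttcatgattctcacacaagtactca
Gzmk: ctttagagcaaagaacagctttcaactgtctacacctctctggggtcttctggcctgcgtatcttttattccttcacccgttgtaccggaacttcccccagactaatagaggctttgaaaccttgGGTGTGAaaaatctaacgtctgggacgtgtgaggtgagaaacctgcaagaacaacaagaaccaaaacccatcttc

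TGTGGT on either strand was present in the windows of 5 members (Ncr1, Gzma, Gzmb, Prf1 and Nkg7), against 11.2% of 32851 windows of the same length before all listed starts. GGTGTGA was present in those of 3 members (Gzmk, Gzmm at its second listed start, and Nkg7), against 2.64%. The letters for both factors did not overlap in any of the members' windows. A match describes the letters only, and binding was not measured.

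Prf1 (Entrez Gene 18646, chr10:61297751-61304684) encodes perforin, the pore-forming protein. It stood at 22.8, 24.7, 31.7, 32.6 and 34.7 RPKM in XXF mice and 9.64, 14, 16.1 and 17.1 RPKM in XYF mice. Among males Prf1 reached 16, 17.8, 22.5, 23.2 and 24.7 RPKM in XXM mice and 7.18, 16.3, 19.2, 20.5 and 21.2 RPKM in XYM mice. The female groups were separate, while 4 of 5 XYM mice lay within the range of XXM mice and XYM 9 lay far below. The log2 difference was 1.0 ± 0.25 (SE, adjusted p = 0.061) in females, 0.36 ± 0.23 (SE, adjusted p = 0.312) in males and 0.68 ± 0.17 (SE, adjusted p = 0.0392) averaged. The call in females was lost without XXF F1, F4 or F5 or XYF F6 or F9 (adjusted p = 0.124, 0.134, 0.153, 0.144 and 0.254, range 0.00506 to 0.254), at differences of 0.941, 0.973, 0.963, 1.01 and 0.843. The averaged difference fell under the fold threshold without XYM 9 (0.55). Without XYF F9 and XYM 9 together the difference was 0.84 (adjusted p = 0.0198) in females, 0.10 (adjusted p = 0.648) in males and 0.47 (adjusted p = 0.0307) averaged, so that the averaged call was lost. The effects differed between females and males by 0.65 ± 0.34 (SE, adjusted p = 0.271), not called, and by 0.91 (adjusted p = 0.0484, range 0.0484 to 0.415) without XYM 9, 0.75 (adjusted p = 0.0869) without the 2 and 0.69 (adjusted p = 0.0674) with array weights on all 19 mice, each called.

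Nkg7 (Entrez Gene 72310, chr7:43437138-43438246), a granule membrane protein needed for efficient degranulation, stood at 119, 126, 146, 147 and 165 RPKM in XXF mice and 63.7, 99.1, 108 and 126 RPKM in XYF mice. In males it stood at 73.8, 77.2, 88.4, 90.8 and 108 RPKM in XXM mice and 58.5, 58.7, 67.8, 72.5 and 111 RPKM in XYM mice. XXF mice lay above all XXM mice, while XX and XY mice overlapped in both gonadal sexes. Males differed from females by a log2 value of -0.67 ± 0.18 (SE, adjusted p = 0.0338) in XX mice, called in each of 32 alternatives, and -0.42 ± 0.20 (SE, adjusted p = 0.106) in XY mice, where it was called without XYF F9 (-0.62, adjusted p = 0.0226, range 0.0174 to 0.295). Averaged it was -0.55 ± 0.13 (SE, adjusted p = 0.00683), past the p threshold but under the fold threshold, and was called at -0.61 (adjusted p = 0.0017) without XYF F9 and XYM 9 together. It was also called averaged with array weights (-0.63), without a fold threshold, and without XYF F9 (-0.65), XXM 2 (-0.59) or XYM 15 (-0.63), with adjusted p between 0.000264 and 0.0178 over the alternatives. XX minus XY gave 0.53 in females and 0.28 in males (adjusted p = 0.18 and 0.325), and the female value was called without XYF F7 (0.66, adjusted p = 0.0704, range 0.0704 to 0.568) but was 0.33 without XYF F9.

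Fasl (Entrez Gene 14103, chr1:161780691-161788495), the ligand of the death receptor Fas, stood at 5.91, 6.47, 6.66, 6.69 and 7.67 RPKM in XXF mice and 2.23, 2.94, 3.28 and 3.42 RPKM in XYF mice. In males it stood at 3.33, 3.72, 3.77, 4.37 and 4.91 RPKM in XXM mice and 2.87, 3.7, 4.05, 4.13 and 5.48 RPKM in XYM mice. Each XXF mouse lay above each of the 14 other mice, and the male groups lay on top of each other. The log2 difference between XX and XY mice was 0.96 ± 0.14 (SE, adjusted p = 0.00144) in females, called in each of 32 alternatives, and 0.00 ± 0.13 (SE, adjusted p = 0.99) in males. The difference between these effects was 0.96 ± 0.19 (SE, adjusted p = 0.0877), and Fasl was the 1 member with a called interaction, beside 0.0564% of all genes called with a larger XX effect in females and 0.0282% with a smaller one. This call held in 12 of 31 alternatives, with the difference between 0.86 and 1.05 when single mice were left out and the adjusted p between 0.0126 and 0.232. The call was lost without XXF F1, XXF F2, XXF F4, XXF F5, XYF F6, XYF F7, XYF F9, XXM 2, XXM 6, XXM 7, XXM 8, XYM 12, XYM 13 or XYM 16 (adjusted p = 0.182, 0.108, 0.164, 0.232, 0.215, 0.1, 0.181, 0.184, 0.191, 0.102, 0.122, 0.208, 0.15 and 0.195), with a pseudocount of 0.1 (0.116), without the filter (0.128), with quantile normalization (0.11), with limma-voom (0.13) and at an adjusted p threshold of 0.05. Without XYF F9 and XYM 9 together it was 0.95 (adjusted p = 0.0251). In XX mice Fasl was lower in males by a log2 difference of -0.62 ± 0.13 (SE, adjusted p = 0.00657), which fell under the fold threshold without XXF F5 (-0.57) or XXM 2 (-0.57) and with quantile normalization (-0.55). In XY mice it was 0.34 ± 0.14 (SE, adjusted p = 0.0684), called only without a fold threshold. Averaged over gonadal sex XX and XY mice differed by 0.48 ± 0.09 (SE, adjusted p = 0.00906), under the fold threshold, and with limma-voom by 0.60 (adjusted p = 0.0126, range 0.0019 to 0.0259). It was called with limma-voom and without a fold threshold.

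Ctsw (Entrez Gene 13041, chr19:5465043-5468628) encodes cathepsin W, a cysteine protease of NK and CD8 T cells whose role in killing is not settled. It stood at 73.7, 77.3, 87.8, 89 and 98.5 RPKM in XXF mice and 37.3, 64.6, 68.8 and 89 RPKM in XYF mice. In males it stood at 45.1, 45.5, 51.3, 52.4 and 59.9 RPKM in XXM mice and 33.3, 45.5, 49, 60 and 66.9 RPKM in XYM mice. XXF mice lay above XXM mice without overlap, and XYF F9 and XYM 9 were the lowest of their groups. From females to males Ctsw changed by -0.73 ± 0.20 (SE, adjusted p = 0.0293) in XX mice, called in each of 32 alternatives, -0.32 ± 0.21 (SE, adjusted p = 0.248) in XY mice and -0.53 ± 0.14 (SE, adjusted p = 0.0119) averaged, the last under the fold threshold. It was called averaged with array weights (-0.59, adjusted p = 0.000603), without XYF F9 (-0.65, adjusted p = 0.0012) and without a fold threshold, with a range of 0.000603 to 0.026. The XX minus XY difference came to 0.45 in females and 0.03 in males (adjusted p = 0.26 and 0.937), and the female value was called without XYF F7 (0.62, adjusted p = 0.0858, range 0.0858 to 0.697) but was 0.21 without XYF F9.

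As a scale for these differences, the called gene with the largest difference between XX and XY mice was the Y-linked Eif2s3y (log2 difference -6.16 in females, -6.56 in males and -6.36 averaged). Between males and females it was the immunoglobulin gene Ighv13-2 (5.66 in XX mice, 7.45 in XY mice and 6.55 averaged), and for the interaction Cd40lg (1.45).

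The RPKM of each gene was also divided by that of Ncr1 in the same mouse, without a test. In each XYF mouse the ratio was higher than in each XXF mouse for 6 of 8 genes (Gzmb, Gzmk, Gzmm, Prf1, Nkg7 and Ctsw), beside 86.5% of the other 14185 genes tested, and Gzma and Fasl overlapped. The divisor Ncr1 was itself lower in XYF mice. Between XYM and XXM mice this held for 1 of 8 (Gzmk), beside 29.3% of the other genes tested. For Prf1 this ratio was 0.958, 1.1, 1.11, 1.15 and 1.33 in XXF mice and 1.4, 1.48, 1.62 and 1.89 in XYF mice. In males it was 0.823, 0.869, 0.963, 0.984 and 1.03 in XXM mice and 1.01, 1.03, 1.38, 1.43 and 1.45 in XYM mice. For Ctsw the ratio was 2.34, 2.35, 3.59, 4.28 and 4.59 in XXF mice and 5.73, 6.96, 7.3 and 8.72 in XYF mice. In males it was 1.61, 1.87, 1.98, 3.15 and 3.31 in XXM mice and 2.87, 3.15, 3.3, 4.53 and 6.72 in XYM mice. For Gzma the ratio was 8.44, 11.9, 14.6, 14.7 and 14.9 in XXF mice and 7.59, 10.5, 13.6 and 14.2 in XYF mice. In males it was 8.31, 8.96, 9.71, 12.3 and 17.8 in XXM mice and 5.53, 5.75, 6.09, 7.49 and 13.1 in XYM mice. These groups overlapped.

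Pairs of members were compared within groups. Correlations used log2 values centred on the group means over 19 mice, with 100000 permutations and adjustment over 36 pairs, and the smallest p these permutations can give is 1e-05. Of the 36 pairs, 19 had an adjusted p under 0.1 for Pearson's r, all positive, and 12 for Spearman's rho. Permuting mice across groups gave p that were too small for independent values in a test on simulated data, so mice were also permuted within groups, an alternative added after the results were known, by which 16 pairs passed for r and 12 for rho. By r over 19 mice the closest pair was Ncr1 and Prf1, with Pearson's r = 0.919 (permutation p = 1e-05, adjusted p = 0.00018) and Spearman's rho = 0.733 (permutation p = 0.00048, adjusted p = 0.00432), and an adjusted p of 0.00162 for r within groups. By rho it was Gzmm and Ctsw (0.825), and without XYF F9 and XYM 9 it was Gzmb and Prf1 by r (0.839). Nkg7 and Ctsw had Pearson's r = 0.841 (permutation p = 1e-05, adjusted p = 0.00018) and Spearman's rho = 0.814 (permutation p = 3e-05, adjusted p = 0.00054). Gzma and Ctsw had Pearson's r = 0.832 (permutation p = 3e-05, adjusted p = 0.00027) and Spearman's rho = 0.623 (permutation p = 0.005, adjusted p = 0.0164). With mice permuted within groups the adjusted p was 0.00342 for r and 0.0036 for rho for Nkg7 and Ctsw. For Gzma and Ctsw it was 0.00836 and 0.0486. Without the 2 mice farthest from the median of the first gene, r was 0.809, 0.74 and 0.773 in these 3 pairs. Several other pairs rested on such mice. Prf1 and Ctsw fell from 0.559 to 0.0387, and Ncr1 and Fasl from 0.456 to 0.0559. These 2 pairs, and Ncr1 with Ctsw, were the 3 that passed across but not within groups (adjusted p = 0.107, 0.276 and 0.208 within groups).

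Without XYF F9 and XYM 9, 9 of the 36 pairs passed for r and 7 for rho with mice permuted across groups. With mice permuted within groups, added after the results were known, 7 passed for r and 7 for rho, and they were the same 7 pairs. Of these, 3 joined Ncr1, Gzmb and Prf1 (r = 0.802 for Ncr1 and Gzmb, 0.763 for Ncr1 and Prf1, and 0.839 for Gzmb and Prf1). The other 4 lay among Nkg7, Ctsw, Gzma and Gzmm (r = 0.756 for Nkg7 and Ctsw, 0.764 for Gzma and Nkg7, 0.704 for Gzmm and Ctsw, and 0.674 for Gzmm and Nkg7). Gzma with Ctsw and Fasl with Ctsw passed only across groups and only for r (0.584 and 0.561), and without the 2 farthest mice of the 17 their r was 0.284 and 0.289. Between Ncr1 and Gzma r went from 0.708 to 0.0992, and between Gzma and Prf1 from 0.739 to 0.0353. Without the 2 libraries r was negative, with no pair passing, between each of Ncr1, Gzmb and Prf1 and each of Gzmm, Nkg7 and Ctsw (from -0.529 for Ncr1 and Gzmm to -0.203 for Prf1 and Ctsw). Gzmk passed with no other member in any of these settings. Values over 19 mice that were not centred on group means also hold the differences between groups. With them 20 pairs passed for r and 19 for rho, among them Gzmk with Gzmm (r = -0.493, permutation adjusted p = 0.0655, and rho = -0.468, adjusted p = 0.0862).

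**Figure D3:**
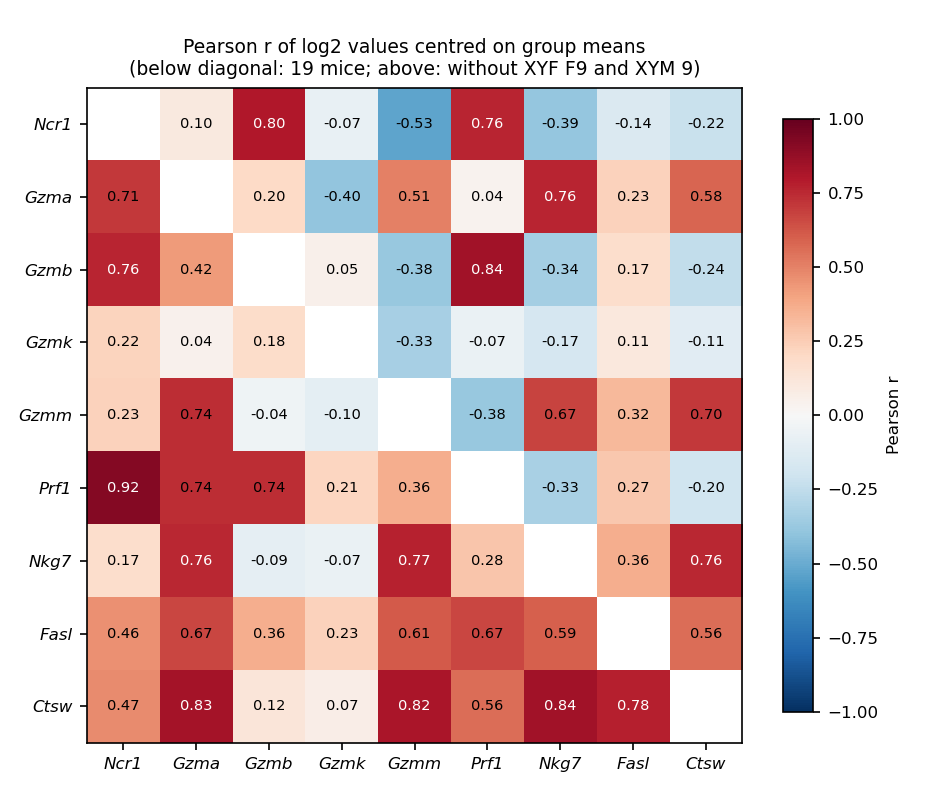
Pearson's r between members over mice, from log2 values centred on group means, below the diagonal for 19 mice and above it for 17 mice without XYF F9 and XYM 9. Above the diagonal, positive values remain within Ncr1, Gzmb and Prf1 and within Gzma, Gzmm, Nkg7 and Ctsw. Values are also positive between Fasl and every member but Ncr1, and between Gzma and each of Ncr1, Gzmb and Prf1.

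Among the tested genes outside the members, those most like each member over 19 mice were listed by the same Pearson's r within groups, as a description. For Ncr1 they were Klri2 (r = 0.938), Klrk1 (r = 0.925) and Trbj1-1 (r = 0.922), and for Prf1 Klrk1 (r = 0.942), Rundc3b (r = 0.918) and Ifi203 (r = 0.908). For Gzma they were Klra4 (r = 0.951), Mxd4 (r = 0.925) and Klra7 (r = 0.925). Klri2, Klrk1, Klra4 and Klra7 are lectin-like receptors of NK cells, whereas Trbj1-1 is a joining segment of the T cell receptor beta chain. For Ctsw they were Gimap1 (r = 0.956), Cd3g (r = 0.955) and Skap1 (r = 0.952), of which Cd3g is a T cell receptor subunit and Skap1 a T cell adaptor. For Gzmm they were Cd8b1 (r = 0.917), Snw1 (r = 0.916) and Ccl5 (r = 0.908), of which Cd8b1 is a CD8 chain and Ccl5 a chemokine of killer cells. For Nkg7 they were Clec2d (r = 0.974), Eef1a1 (r = 0.969) and Gm8680 (r = 0.965). The remaining members were most like genes of mixed kinds. For Gzmb they were Ncoa5 (r = 0.922), Dvl1 (r = 0.898) and Rap1gds1 (r = 0.892), and for Fasl Zfp869 (r = 0.92), Igtp (r = 0.883) and Rnf114 (r = 0.881). For Gzmk they were Igkv19-93 (r = 0.883), Igkv4-72 (r = 0.868) and Nrep (r = 0.84), of which Igkv19-93 and Igkv4-72 are immunoglobulin kappa variable genes.

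Other genes of the killing machinery were read from lists. Of 17 genes for granule processing, release and protection, 16 were tested, and Vamp7 had 0 reads in all 19 libraries. In females 1 was called higher in XX mice (Serpinb9b) and 0 lower, in males 1 higher (Serpinb9b) and 1 lower (Lyst), and averaged 1 higher (Serpinb9b) and 0 lower. The list medians were 0.02, -0.07 and -0.05. Serpinb9b, a granzyme inhibitor of the serpin family, stood at 2.3 ± 0.705 RPKM in XXF, 0.312 ± 0.222 in XYF, 1.53 ± 0.404 in XXM and 0.285 ± 0.132 in XYM mice (mean ± SD), and differed between XX and XY mice by 1.32 in females and 0.97 in males (adjusted p = 0.000283 and 0.00589). Lyst, a regulator of lysosome-related granules, was lower in XXM than in XYM mice (-1.17) and higher in XYM than in XYF mice (1.24). Cst7, an inhibitor of granule cathepsins, was lower in XXM than in XXF mice (-0.68), and Vamp8, a vesicle fusion protein, lower in XYM than in XYF mice (-0.72). The 2 most abundant genes were Srgn, the granule proteoglycan serglycin (610.4 ± 46.4 RPKM in XXF mice), and Vamp8 (183 ± 37.4 RPKM). Srgn was called in 0 of 7 comparisons.

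Of 10 death receptor ligands, receptors and targets, 10 were tested. Fas, the receptor of Fas ligand, was lower in XXM than in XYM mice (-0.59, adjusted p = 0.0711) and than in XXF mice (-0.63, adjusted p = 0.0216), and no other gene of the list was called. Fas stood at 12 ± 1.82 RPKM in XXF, 14 ± 2.33 in XYF, 7.47 ± 1.36 in XXM and 11.9 ± 3.22 in XYM mice, and the most abundant genes of the list were Bid and Casp8 (33 ± 0.719 and 28.9 ± 6.1 RPKM in XXF mice). Of 9 transcription factors of cytotoxic lymphocytes, 9 were tested, and only Ets1 was called, higher in XYM than in XYF mice (0.66, adjusted p = 0.0191). Ets1 and Id2 were the most abundant, at 239 ± 40.1 and 131 ± 17.8 RPKM in XXF mice.

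Some NK markers were called between XX and XY mice. Of 28 NK receptors, adaptors and chemokines, 27 were tested. In females 8 were called higher in XX mice (Klra4, Klra8, Klrc2, Klrb1c, Klrk1, Klrg1, Klre1 and Klri2, with log2 differences between 1.09 and 1.51) and 1 lower (Sh2d1b1, -0.68), with a list median of 0.65. In males 8 were called higher in XX mice (Klra4, Klra8, Xcl1, Klrb1c, Ccl3, Ccl4, Klrg1 and Klre1, between 0.62 and 1.31) and 0 lower, with a median of 0.21. Averaged, 9 were higher (Klra4, Klra8, Klrc2, Xcl1, Klrb1c, Klrk1, Klrg1, Klre1 and Klri2) and 0 lower. The list summed to 1210.1, 1263, 1333, 1386 and 1415 RPKM in XXF mice and 917, 919.5, 1031 and 1494 RPKM in XYF mice. In males it summed to 1059, 1077, 1156, 1223 and 1288 RPKM in XXM mice and 749, 861, 864, 1006 and 1152 RPKM in XYM mice. The sums overlapped between XX and XY mice. The most abundant genes were Tyrobp, which myeloid cells also express (377 ± 36.5 RPKM in XXF and 456 ± 175 in XYF mice), and Ccl5 (334 ± 39.3 and 217 ± 61 RPKM). Between males and females, Klra8 and Ccl3 were higher and Klrd1, Hcst, Cd160 and Cd226 lower in XXM than in XXF mice. Il18rap, Il2rb, Klra8, Klrc1, Klrc2, Klrk1 and Klri2 were higher and Tyrobp, Hcst and Sh2d1b1 lower in XYM than in XYF mice. The gene left untested, Sh2d1b2, had 0 reads in each XYF and XXM mouse and at most 3 reads in another mouse, and the part of NK cell number in the results for Ncr1, Gzma, Gzmb and Prf1 was not tested.

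Most T cell markers were called between XXM and XXF mice, as were Nkg7, Ctsw, Gzmk and Fasl. Of 13 genes, 13 were tested and 12 were called lower in XXM mice (Cd3d, Cd3e, Cd3g, Cd247, Cd4, Cd5, Cd8a, Cd8b1, Cd28, Lat, Trac and Trbc2), with a list median of -1.40 and the largest difference for Cd8b1 (-2.23). In XY mice 9 were lower in males (Cd3d, Cd3e, Cd3g, Cd247, Cd8a, Cd8b1, Lat, Trac and Trbc2), with a median of -0.79, and averaged 11 were lower. Between XXF and XYF mice 0 were called, but 13 of 13 had a difference above 0, with a list median of 0.39. In males 4 were lower in XXM than in XYM mice (Cd4, Cd8a, Cd8b1 and Cd28), with a median of -0.18 and 3 of 13 above 0. The list summed to 1392, 1470.3, 1838, 1933 and 2107 RPKM in XXF mice and 745, 1429, 1548 and 1900.5 RPKM in XYF mice. In males it summed to 460.1, 476, 657, 689 and 706 RPKM in XXM mice and 427, 652, 703, 793 and 911 RPKM in XYM mice. XXF mice lay above all male mice, and XYF F9 was the 1 female within the male range. Trac was the most abundant gene (338 ± 50.3 RPKM in XXF and 128 ± 24.4 in XXM mice), none of the 13 was at 0, and the part of T cell number in these results was not tested. Cd28 was the 1 gene of the lists beside Fasl with a called interaction (1.35, adjusted p = 0.0546). The interaction was above 0 for 13 of 13 T cell markers, with a median of 0.63.

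**Figure D4:**
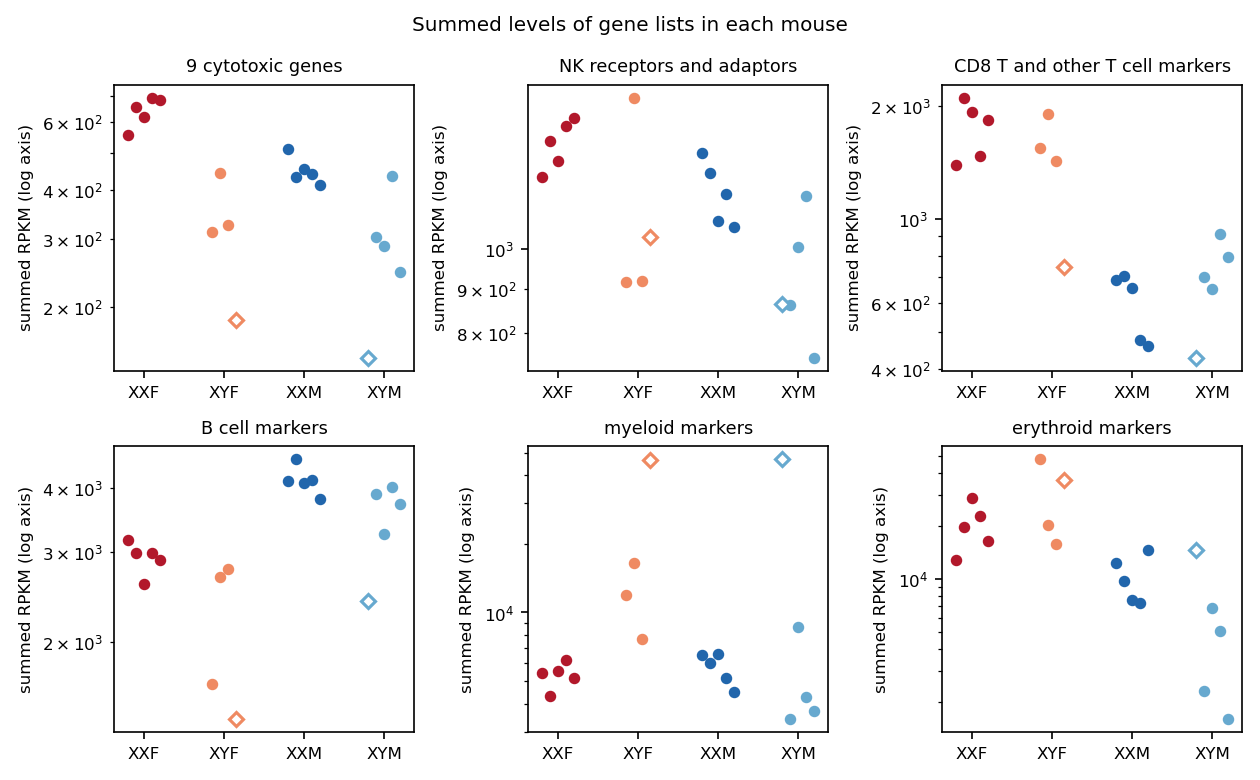
Summed RPKM of 6 gene lists in each mouse on log axes, by group, with open diamonds for XYF F9 and XYM 9. The T cell markers separate most females from males, the 9 cytotoxic genes are lowest in XYF F9 and XYM 9, and the myeloid markers are highest in these libraries.

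Markers of other cells gave the setting. Among 5 ILC1 markers, Cxcr6 was higher and Tmem176a and Tmem176b lower in XXF than in XYF mice, Il7r was lower in XXM than in XYM mice, and Il7r and Cxcr6 were lower and Tmem176a and Tmem176b higher in XXM than in XXF mice. Il7r was the most abundant at 72.9 ± 11.7 RPKM in XXF mice. Of 9 B cell markers, 8 were higher in XYM than in XYF mice, 1 in XXM than in XXF mice (Pax5), 2 in XXF than in XYF mice (Blk and Cr2) and 1 in XXM than in XYM mice (Pax5), led in abundance by Cd79b (815 ± 61.9 RPKM in XXF mice). Of 7 erythroid markers, 7 were lower in XYM than in XYF mice, and 2 (Hba-a1 and Hba-a2) higher in XXM than in XYM mice, with Hbb-bs at 13897 ± 3958 RPKM in XXF and 4194 ± 3622 RPKM in XYM mice. Of 10 myeloid markers, 0 were called between XXF and XYF mice and 1 was lower in XXM than in XYM mice (Ly6c2). The myeloid list summed to 4324, 5174, 5427, 5555 and 6181 RPKM in XXF mice and 7652, 11947, 16493 and 46229 RPKM in XYF mice, which did not overlap. In males it summed to 4479, 5150.1, 6040.4, 6531 and 6584 RPKM in XXM mice and 3409.6, 3708, 4268, 8627 and 46862 RPKM in XYM mice.

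Of 7 plasma cell markers, 2 were lower in XXF than in XYF mice (Tnfrsf17 and Derl3), and Irf4 was higher and Tnfrsf17 lower in XYM than in XYF mice, with Jchain the most abundant (775 ± 359 RPKM in XXF and 1292 ± 216 in XYF mice). Of 7 plasmacytoid dendritic cell markers, Klk1 and Siglech were higher in XXM than in XYM mice, Siglech was higher in males in both chromosome groups, Cox6a2 was higher and Ccr9 lower in XXM than in XXF mice, and Bst2 was the most abundant (83.4 ± 13.6 RPKM in XXF mice). Of 7 mast cell and basophil markers, 1 was called (Cyp11a1, higher in XXM than in XXF mice), and Mcpt8 and Prss34 were the most abundant (7.59 ± 2.12 and 6.05 ± 1.7 RPKM in XXF mice). Of 8 proliferation markers, led by Top2a (31.4 ± 5.76 RPKM in XXF mice), 4 were lower in XYM than in XYF mice (Birc5, Ccna2, Cdk1 and Ccnb1), and Bub1 was lower in XX mice averaged over gonadal sex. None of these markers was at 0 in all mice, and their part in the results for the members was not tested.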

How the data were processed

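The authors deposited log2 values per gene, after alignment to mm10 by Subread and counting by featureCounts, and these equal log2(RPKM + 1) with 0.0001 added. Their EdgeR test was not run here, and limma-voom on recovered reads is an alternative. Whole reads, within 0.05 of a whole number, were recovered from the steps of the values for all 21317 genes with a read. Positions came from RefSeq (GRCm38), matched by Entrez Gene identifier for 25275 of 27179 genes, and exon overlap from GENCODE vM21. The filter kept genes that reached an RPKM of 0.5 in 4 or more mice, and limma 3.58.1 (R 4.3.3) fitted group means with a trended empirical Bayes spread. Read recovery, the limma fit and the correlations were tested on simulated data. Tables and figures used Python 3.11.15 with numpy 2.4.6, matplotlib 3.10.9, scipy 1.17.1 and pandas 2.3.3.

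Named were the 9 members, list genes called in any comparison with the 2 most abundant of each list, the 3 genes most correlated with each member, and the called gene with the largest difference per comparison. The members and lists were chosen with earlier results of these data known. The methods name a KAPA stranded kit, the sample records a NEBNext Ultra kit. XXM titles hold an additional label that is not explained, and a batch along it could not be told from the group. The S numbers in the titles, also not explained, run in a separate block for each group, males before females. An effect of that order could not be told from the groups either. Strand setting and multiply matched reads are not described. Chi-square per gene between mice of a group was 21.7 or more, where repeated sequencing of the same library would give about 1.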

Additional observations from a re-analysis of the deposited data

Results flagged for a closer look

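The values of each member in each group, 36 sets in all, were searched for a mouse far from the others, and chance flags about 1 in 20 such sets. XYM 9 stood far below the other 4 XYM mice for Ncr1 (2.57 on the log2(RPKM + 1) scale) and for Prf1 (3.03). It is 1 of the 2 libraries with the highest myeloid marker sums, and the part of those cells in the low values was not tested.

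The effect of XX against XY chromosomes on Fasl differed between females and males by a log2 difference of 0.96 (limma, adjusted p = 0.0877, range 0.0126 to 0.232 over the alternatives). Each of 5 XXF mice lay above each of 4 XYF mice, while XXM and XYM mice overlapped. In the same interaction 13 of 13 T cell markers lay above 0 (median 0.63), as did 8 of 9 B cell markers (median 0.40). Of 27 tested NK receptors and adaptors 19 lay above 0 (median 0.28). The part of these cells in the result for Fasl was not tested.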

How the results depend on the processing

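No member changed the sign of a called difference in any alternative. Over 63 pairs of member and comparison, 1896 alternative values stayed on the same side of the thresholds, 52 lost a call and 41 gained one. Counts of called genes that moved by over 1.5 times are given here, with the cause not tested except that stricter or looser thresholds change counts by construction. The counts were 5 members and 196 genes for XX against XY in females, 1 and 420 in males, and 4 and 244 averaged. They were 4 and 598 for gonads in XX mice, 2 and 2237 in XY mice, 1 and 1039 averaged, and 1 and 12 for the interaction. With log2(RPKM + 0.1) they were 2 for gonads averaged and 0 for the interaction (members) and 413 for XX against XY averaged, 1700 for gonads averaged and 6 for the interaction (genes). With no filter they were 0 for the interaction (members) and 211 for XX against XY in males and 6 for the interaction (genes). With median ratio rescaling they were 2 for XX against XY in males (members). With quantile normalization they were 2 for XX against XY in males and 0 for the interaction (members). Compared groups alone gave 0 for XX against XY in males (members) and 88 for XX against XY in females and 121 for XX against XY in males (genes). With array weights they were 3 for gonads averaged and 3 for the interaction (members) and 1027 for XX against XY in males and 1911 for the interaction (genes). With adjusted p threshold of 0.05 they were 3 for XX against XY in females, 0 for XX against XY in males and 0 for the interaction (members) and 103 for XX against XY in females, 85 for XX against XY in males and 0 for the interaction (genes). With no fold change threshold they were 4 for gonads averaged (members) and 345 for XX against XY in females, 1115 for XX against XY in males, 983 for XX against XY averaged, 1348 for gonads in XX mice, 5661 for gonads in XY mice and 5468 for gonads averaged (genes). With limma-voom on recovered reads they were 2 for gonads averaged and 0 for the interaction (members) and 395 for XX against XY averaged, 1714 for gonads averaged and 4 for the interaction (genes). Without XYF F9 and XYM 9 together they were 2 for gonads averaged and 3 for the interaction (members) and 127 for XX against XY in females, 876 for XX against XY in males and 782 for the interaction (genes). The pairs of members with an adjusted p under 0.1 fell from 19 to 9 without XYF F9 and XYM 9 together, and were 16 with mice permuted within groups over 19 mice and 7 over 17 mice, both alternatives added after the data were seen.

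With single mice left out, the members called ran from 2 to 8 for XX against XY in females, 0 to 2 in males and 3 to 5 averaged. They ran from 2 to 4 for gonads in XX mice, 2 to 3 in XY mice and 1 to 3 averaged, and 0 to 3 for the interaction. All genes called ran from 56 to 850, 51 to 1214 and 148 to 518 for XX against XY, from 499 to 627, 1395 to 2958 and 837 to 1253 for gonads, and from 0 to 1695 for the interaction.

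Median ratio rescaling turned the 95 higher and 101 lower genes in XXF against XYF mice into 65 and 119, and limma-voom the 8 and 4 interaction genes into 4 and 0. Median ratio rescaling moved the median gene by 0.137 in XYF F9, and by under 0.1 in the other 18 mice. No paired analysis was possible because no number recurs within a sex, and the labels do not say that a number of a female and the same number of a male (such as F2 and 2) mark a shared litter, batch or day. Depth limits Gzmk, with 2 to 27 reads in male mice.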
